A study of Mus musculus with 8 samples.

Results

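Interferon response genes were examined in whole testes of wild-type mice and of mice homozygous for a mutation in Iqch, a testis gene whose protein carries a calmodulin-binding IQ motif. The genes were chosen by name, with earlier results of these data known. The 9 listed were the membrane proteins Ifitm1, Ifitm2, Ifitm3 and Bst2, the signalling and transcription factors Stat2, Irf1 and Irf7, the ubiquitin-like modifier Isg15, and Ifi27 of the ISG12 family. The deposited expression table had a row for 7 of the 9 among its 17127 genes. Ifitm1 and Isg15 had no row and are not analysed here.

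The study asked what loss of normal IQCH does to gene expression in the male germ line, by RNA-seq of adult testis at 4 months of age. The wild-type group (labelled Wild-type) held 4 libraries, numbered 1 to 4, each from a different mouse. The mutant group (labelled Iqch knockout, genotype Iqch-/-) held 3 analysed libraries, numbered 1, 2 and 4, and mutant 3 is not analysed here. The study set a mutant library aside as an outlier without giving its number, so the mutant SDs and the statements on every mutant library hold for the analysed libraries alone. The mutants came from CRISPR-Cas9 editing of exon 19 in B6CBAF1 zygotes, and both edited lines carry a small deletion in that exon. It is expected to truncate the protein and keep most of its sequence, so the label knockout covers an allele predicted to truncate. The study found the full-length protein absent by Western blot and IQCH absent by immunofluorescence in the mutants. A legend in its supplement says instead that mutant animals expressed the protein. The labels do not say from which line each mouse came, and the study describes RNA-seq coverage of the mutants as that of the line Iqchmu7. The animals of both groups received no treatment that the labels name. RNA was taken from the whole organ, so each value sums over germ cells, Sertoli cells, Leydig cells, vessels and immune cells, and fewer cells of a type and less RNA per cell cannot be told apart.

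Type I interferons act through a receptor made of IFNAR1 and IFNAR2, and the kinases JAK1 and TYK2 then phosphorylate STAT proteins, STAT2 among them, which join IRF9 and bind the interferon-stimulated response element (ISRE) of target promoters. Interferon gamma acts through its own receptor with JAK1 and JAK2, and its target promoters carry the gamma-activated site (GAS). In the testis, Sertoli cells, Leydig cells and resident macrophages are known to respond to interferon, germ cells much less.

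The letters of these elements were looked for in the promoters of the 7 genes. Each window ran from 250 bases before to 50 bases after the start of the canonical transcript (300 bases, GRCm39, sequence from that genome and GENCODE M39), and both strands were read. The ISRE core was searched as GAAANNGAAA and was present in 3 of the 7 windows (42.9%), beside 557 of the 17026 windows of all tested genes (3.27%). The GAS core, searched as TTCNNNGAA, was present in 2 of the 7 (28.6%), beside 1329 of all windows (7.81%). The stretches around the matches are shown 5′ to 3′ in the direction of transcription of the gene, with the matched letters in capitals. In Bst2, 2 ISRE matches overlap each other from position -132 to -117 relative to the start (chr8:71990224-71990253, minus strand), and a GAS match from -138 to -130 overlaps them (chr8:71990234-71990262, minus strand). In Stat2 the ISRE match lies at -207 to -198 and reads on the opposite strand (chr10:128106135-128106164, shown on the plus strand). In Ifi27 it lies at -25 to -16 (chr12:103400382-103400411, plus strand). The GAS match of Irf1 lies at -90 to -82 (chr11:53660741-53660769, plus strand).
Bst2 ISRE: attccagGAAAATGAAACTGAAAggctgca
Bst2 GAS: tctaggggcaTTCCAGGAAaatgaaactg
Stat2 ISRE: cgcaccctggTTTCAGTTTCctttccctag
Ifi27 ISRE: gagagctgggGAAATAGAAAcctatcttat
Irf1 GAS: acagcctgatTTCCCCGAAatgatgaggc
The windows of Ifitm2, Ifitm3 and Irf7 held neither set of letters, which says only that these letters are not in these windows. A match is a run of letters and not a measured binding site.

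The values were CPM, a gene's reads scaled so that each library sums to 1000000. Every value was a whole multiple of 1 step of its library, 0.0266 to 0.0312 CPM, and with that step taken as 1 read the libraries held 32064384 to 37551057 reads on the listed genes. Iqch itself, the edited gene (ENSMUSG00000037801, chr9:63328687-63509775, minus strand), ran from 193 to 217 CPM in the wild-type libraries and from 64.8 to 69.2 CPM in the mutants, a log2 fold change of -1.63 (SE 0.05, limma FDR = 1.9e-10). The groups did not overlap, and the labels of the 7 libraries held for the edited gene. Many genes differed between these testes. Of 17126 genes tested with limma, 36.3% were called higher in the mutants at an FDR of 0.01, 8.79% were called higher with a fold above 2, and 14.2% were called lower. Over all tested genes the log2 fold change had a median of 0.12, and dividing the CPM by median-of-ratios size factors moved it to -0.01. With those factors 27.0% of all tested genes were called higher, and 4294 of the 17126 were called lower.

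Of the 7 interferon response genes, 6 rose in the mutants, all 6 with a fold above 2, and none fell. The 6 were Ifitm2, Ifitm3, Bst2, Irf1, Irf7 and Ifi27, and Stat2 was not called. Every mutant library was above every wild-type library in all 7, beside 42.8% of all tested genes. Their median log2 fold change was 1.36, which is 1.23 above the median of all genes. Summed macrophage markers were at 98.9 to 111 CPM in the wild type and 302 to 346 CPM in the mutants, and summed Leydig cell markers at 1021 to 1224 and 4296 to 4472 CPM. Both moved with these genes, and their part in the result was not tested. Irf7 reached the minimum for testing (2.2 CPM in 2 libraries of a group) in the mutants alone, so it had to be higher there to be tested, and counts over the tested genes are given as description. Among the 16482 genes at the minimum in the wild type, 34.4% were called higher, and 5 of the 6 interferon response genes were.

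**Figure D1:**
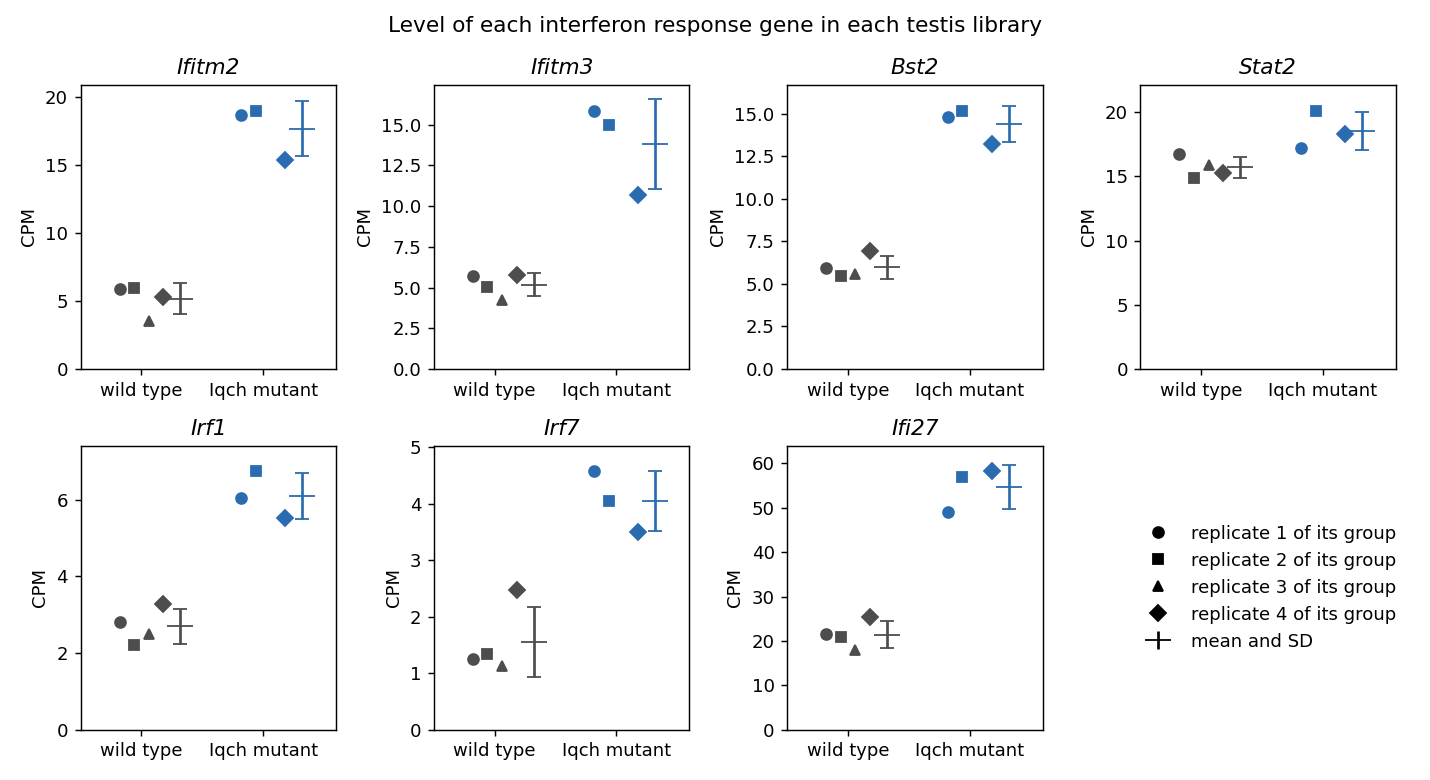
CPM of each interferon response gene in each library, with 1 panel per gene and a linear axis from 0. Symbols are single mice, and the cross and bar are the mean and SD of the 4 wild-type (grey) or 3 mutant (blue) libraries. The mutants lie above the wild type in every panel, with the smallest gap in Stat2 (16.8 CPM in the highest wild type, 17.2 CPM in the lowest mutant).

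STAT2 is a transcription factor particular to the type I and type III interferon pathways. Stat2 (ENSMUSG00000040033, chr10:128106352-128128735, plus strand, 24 exons in the canonical transcript) was at 16.8, 14.9, 15.9 and 15.2 CPM in wild types 1 to 4 and at 17.2, 20.1 and 18.3 CPM in mutants 1, 2 and 4. Mutant 1 stood only just above wild type 1. The means were 15.7 ± 0.828 CPM (SD, n = 4) and 18.5 ± 1.48 CPM (SD, n = 3). The log2 fold change of 0.24 (SE 0.08, 95% interval 0.07 to 0.40) did not pass the threshold (limma FDR = 0.0177), and the FDR ran from 0.0119 to 0.251 over the other settings tried. With size factors the log2 fold change was 0.10 (FDR = 0.251). Stat2 was the most deeply sequenced of the 3 regulators, with 512 to 645 reads per library, and the interval shows that a doubling of its RNA lay outside what these libraries allow.

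IRF1 is a transcription factor induced by interferon gamma through the GAS of its promoter. Irf1 (ENSMUSG00000018899, chr11:53660812-53669200, plus strand, 10 exons) was at 2.81, 2.21, 2.50 and 3.28 CPM in the wild types and at 6.03, 6.74 and 5.53 CPM in the mutants. The lowest mutant was well above the highest wild type. Its mean rose from 2.70 ± 0.455 CPM to 6.10 ± 0.607 CPM, a log2 fold change of 1.16 (SE 0.15, 95% interval 0.83 to 1.48, limma FDR = 2.4e-05).

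IRF7 is the regulator that amplifies type I interferon production once a first signal has been received. Irf7 (ENSMUSG00000025498, chr7:140842619-140846398, minus strand, 10 exons) was at 1.26, 1.34, 1.13 and 2.48 CPM in the wild types and at 4.57, 4.05 and 3.50 CPM in the mutants. Wild type 4 stood apart from the other 3 wild types and was still below every mutant. These were the fewest reads of any of the genes, 37 to 93 per wild-type library and 114 to 159 per mutant library. The mean rose from 1.55 ± 0.624 CPM to 4.04 ± 0.533 CPM, a log2 fold change of 1.39 with the widest interval of the 7 (SE 0.24, 95% interval 0.87 to 1.90, limma FDR = 0.00024). Without wild type 4 it was 1.62. Irf7 overlaps Phrf1 on the opposite strand, whose mean level was 82.1 ± 2.38 CPM without the mutation and 87.4 ± 0.669 CPM with it, and which was not called (FDR = 0.0818). The strand setting of the counting is not given in the sources used here, so reads of the overlapping stretch cannot be told apart.

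The IFITM proteins sit in plasma and endosomal membranes and block the fusion of incoming viruses. Ifitm2 (ENSMUSG00000060591, chr7:140534738-140536228, minus strand, 2 exons) was at 5.89, 5.97, 3.56 and 5.27 CPM in the wild types and at 18.7, 19.0 and 15.4 CPM in the mutants. Wild type 3 was the lowest of all libraries, and the groups were far apart. The mean rose from 5.17 ± 1.12 CPM to 17.7 ± 2.02 CPM, and its log2 fold change of 1.78 was the highest of the 7 (SE 0.16, 95% interval 1.43 to 2.12, limma FDR = 1.1e-06). Ifitm2 overlaps Gm45717, a protein-coding gene on the same strand that had no row. How reads of the overlapping stretch were assigned is not known.

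Ifitm3, also known as fragilis from its expression in primordial germ cells, lies 53271 bp from Ifitm2 (ENSMUSG00000025492, chr7:140589499-140591282, minus strand, 2 exons). It was at 5.68, 5.04, 4.23 and 5.75 CPM in the wild types and at 15.9, 15.0 and 10.7 CPM in the mutants. Mutant 4 was the lowest of the mutants and was still above every wild type. The mean rose from 5.18 ± 0.708 CPM to 13.8 ± 2.76 CPM, a log2 fold change of 1.39 (SE 0.15, 95% interval 1.07 to 1.71, limma FDR = 4.2e-06). Ifitm2 and Ifitm3 are close paralogs, and the counting could divide or share reads between them, so how the change is shared between them is uncertain. Of the family's other members, Ifitm7 fell from 47.8 ± 2.18 CPM to 41.1 ± 1.14 CPM (log2 fold change -0.22, SE 0.05, FDR = 0.0036).

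BST2, or tetherin, holds budding viruses at the cell surface, and in mice it is also a surface antigen of plasmacytoid dendritic cells. Bst2 (ENSMUSG00000046718, chr8:71986895-71990114, minus strand, 5 exons) was at 5.95, 5.45, 5.60 and 6.95 CPM in the wild types and at 14.8, 15.2 and 13.2 CPM in the mutants. Both groups were tight, with a wide gap between them. The mean rose from 5.99 ± 0.676 CPM to 14.4 ± 1.05 CPM, a log2 fold change of 1.26 (SE 0.10, 95% interval 1.03 to 1.48, limma FDR = 5.1e-07). Of the 4 plasmacytoid dendritic cell markers listed, Siglech and Ccr9, which define the type, had no row. The other 2, Tcf4 and Bcl11a, are expressed in other cells too and summed to 47.6 to 50.6 CPM in the wild type and 49.3 to 58.0 CPM in the mutants.

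IFI27 is a small membrane protein of mitochondria and the nuclear envelope, and it is among the common read-outs of type I interferon. Ifi27 (ENSMUSG00000064215, chr12:103392254-103407799, plus strand, 7 exons) was at 21.6, 20.9, 17.9 and 25.4 CPM in the wild types and at 49.1, 57.0 and 58.2 CPM in the mutants. It had the most reads of the 7, 587 to 952 per wild-type and 1709 to 1894 per mutant library. The mean rose from 21.4 ± 3.08 CPM to 54.8 ± 4.94 CPM, a log2 fold change of 1.36 (SE 0.10, 95% interval 1.14 to 1.58, limma FDR = 2.1e-07). Its paralog Ifi27l2a, which overlaps it on the opposite strand, was at 1.72 ± 0.526 CPM and 2.33 ± 0.131 CPM and was not called (FDR = 0.0957).

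**Figure D2:**
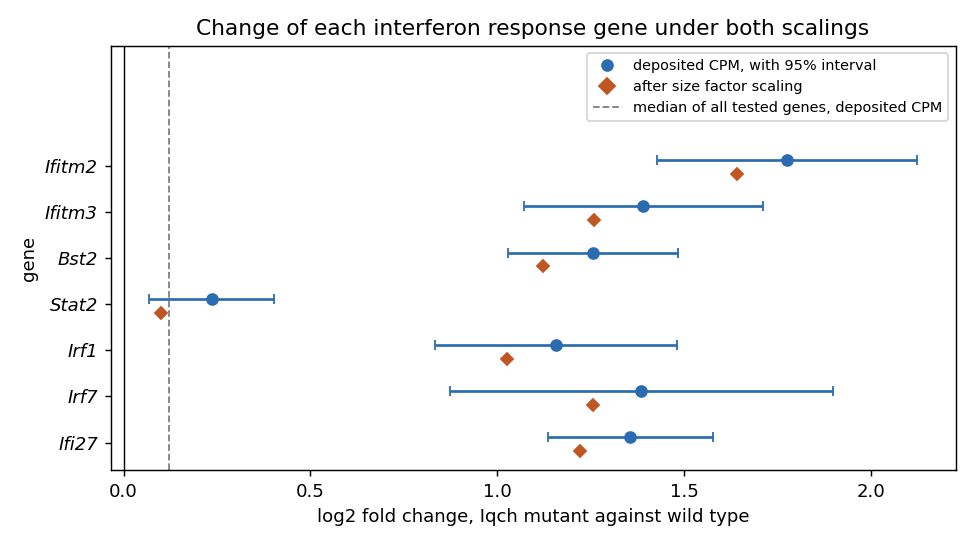
Log2 fold change of each interferon response gene, Iqch mutant against wild type, on the log2(CPM + 0.1) scale. Circles with bars are the estimates from the deposited CPM with their 95% intervals, diamonds the estimates after size factor scaling, and the dashed line the median of all tested genes (0.12). Stat2 stands beside that line, and the other 6 lie at 1.16 or above with the deposited CPM.

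Scaling by size factors lowered every one of these changes a little and altered no call. With it the log2 fold changes were 1.64 for Ifitm2, 1.26 for Ifitm3, 1.12 for Bst2, 1.03 for Irf1, 1.26 for Irf7 and 1.22 for Ifi27. The highest FDR among these 6 was 0.00051, for Irf7.

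Per kb of exon, the effectors were more abundant than the regulators in both groups. In the wild type Ifitm2 (5.18 ± 1.12 CPM per kb), Bst2 (4.93 ± 0.557), Ifi27 (4.81 ± 0.690) and Ifitm3 (4.04 ± 0.553) formed an order in which each neighbouring pair overlapped. Stat2 followed at 2.49 ± 0.131 CPM per kb with no overlap with either neighbour, and Irf1 (0.577 ± 0.0973) and Irf7 (0.410 ± 0.165) came last and overlapped each other. In the mutants Ifitm2 stood alone at 17.7 ± 2.02 CPM per kb. Ifi27 (12.3 ± 1.11), Bst2 (11.9 ± 0.864) and Ifitm3 (10.8 ± 2.16) overlapped, ahead of Stat2 (2.94 ± 0.235), Irf1 (1.30 ± 0.130) and Irf7 (1.07 ± 0.141). Levels per kb rest on the union of annotated exons, which for Ifi27 (4461 bases) covers far more than a single transcript.

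Within the groups the genes ranked the libraries partly alike, with exceptions. Wild type 4 was the highest wild type for 5 of the 7 genes and wild type 3 the lowest for 4. Among the mutants, mutant 2 was the highest for 4 genes and mutant 4 the lowest for 5, with Ifi27 the exception in which mutant 4 was highest. On the log2 scale relative to the wild-type mean, the median of the 7 genes was 0.07, -0.07, -0.25 and 0.22 in wild types 1 to 4 and 1.30, 1.40 and 1.13 in mutants 1, 2 and 4. Bst2 followed this median profile most closely, with a mean absolute difference of 0.0505 over the 7 libraries, then Ifi27 (0.0796), Ifitm3 (0.104) and Irf1 (0.110). Irf7 (0.182), Ifitm2 (0.336) and Stat2 (0.526) were farther from it. Outside the list, the tested genes nearest to the profile were Slc46a1 (0.0399), a folate transporter, Srebf1 (0.0482), a regulator of lipid synthesis, and Trmt2b (0.0511), a mitochondrial RNA methyltransferase, and many called genes have such a step between the groups.

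The rest of the pathway was taken from lists of 105 further genes, also chosen with earlier results of these data known. Of the 105, 69 had a row and 36 had none. Of the 69, 53 rose (76.8%), 3 fell and 13 were not called, beside 36.3% called higher and 14.2% called lower of all tested genes. The median log2 fold change was 0.87. With size factors the median was 0.73, and 46 of the 69 were called higher and 5 lower. Of all 17126 tested genes, 4627 were called higher and 4294 lower with that scaling. Here 19 of the 69 had reached the minimum in the mutants alone. Of the other 50, 35 rose (70.0%), beside 34.4% of all genes at the minimum in the wild type. The counts of each list by role are read against the same shares. Isg20 and Ifitm7 were among those that fell, and the number called lower was 1 without wild type 1, without mutant 1 or without mutant 4. None of the 7 interferon genes listed (Ifnb1, Ifng, Ifne, Ifnk, Ifnl2, Ifnl3 and Ifnz) had a row, so the ligands themselves are not analysed here.

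At the receptors, all 5 genes with a row rose, 3 of them with size factors. Il10rb, a shared chain of the type III receptor, rose from 4.69 ± 0.330 CPM to 13.3 ± 0.616 CPM (log2 fold change 1.49), and Ifnar2 from 4.93 ± 0.323 CPM to 12.2 ± 1.16 CPM (1.29). Its partner Ifnar1 differed far less, 24.7 ± 1.66 CPM against 30.7 ± 2.93 CPM (0.31, limma FDR = 0.0036, and 0.053 with size factors). Among the kinases, STATs and IRFs, 9 of 11 rose, 6 of them with size factors, and 1 fell. The largest was Irf8, a factor of macrophages and dendritic cells, from 6.70 ± 0.878 CPM to 22.0 ± 2.75 CPM (1.70). Stat3 (1.16) and Jak2 (1.04) also rose more than 2-fold. Irf9, with which STAT2 forms its complex, rose from 4.12 ± 0.518 CPM to 7.58 ± 0.691 CPM, a log2 fold change of 0.87 beside the 0.24 of Stat2. The difference between the changes of Irf9 and Stat2 was not tested.

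Of the negative regulators, 5 of 7 rose. Socs3, an inhibitor of JAK signalling, rose by a log2 fold change of 1.31, the IRF2-binding repressor Irf2bp2 by 1.03 and the phosphatase Ptpn6, known from blood cells, by 1.01 (at the minimum in the mutants alone), while Socs1 was not called (5.34 ± 0.536 CPM and 5.63 ± 0.167 CPM). Of the nucleic acid sensors and adaptors, 7 of 12 rose, none fell and 5 were not called, and of the 9 at the minimum in the wild type 4 rose. Those past a fold of 2 were the RNA sensors Ifih1 (1.27) and Tlr3 (1.22) and the adaptor Mavs (1.06), of which Ifih1 and Tlr3 had reached the minimum in the mutants alone. The sensor Dhx58 was at 49.8 ± 2.15 CPM and 49.96 ± 1.26 CPM, and the DNA sensor Cgas at 9.25 ± 0.633 CPM and 7.98 ± 0.986 CPM. Neither was called with the deposited CPM. Cgas was called lower with size factors (FDR = 0.0082), as were 4294 of the 17126 tested genes.

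Of the antiviral effectors, 19 of 22 rose, and 13 of the 16 at the minimum in the wild type. The log2 fold changes past a fold of 2 were 2.16 for Trim30a, 1.36 for Ifi35, 1.30 for Trim21, 1.23 for Parp14, 1.23 for Nmi, 1.22 for Trim25, 1.20 for Parp9, 1.15 for Lgals3bp, 1.06 for Dtx3l and 1.01 for Oasl2. Of these, Trim30a, Trim21, Parp14, Nmi, Parp9 and Dtx3l had reached the minimum in the mutants alone. They include ubiquitin ligases of the TRIM family, the partner proteins PARP9 and DTX3L, and a relative of the 2-5A synthetases. Isg20, an RNA exonuclease, fell from 63.2 ± 3.68 CPM to 41.3 ± 1.96 CPM (log2 fold change -0.61, SE 0.06, FDR = 1.7e-06). Mx1, a textbook interferon target, was at 3.59 ± 0.495 CPM and 2.62 ± 0.619 CPM and was not called (FDR = 0.0399). All mutants were below all wild types for Mx1, as for 3332 of the 17126 tested genes.

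The interferon-inducible GTPases, which attack vacuoles that hold pathogens, had some of the largest changes. Of the 7 tested, 6 rose, by log2 fold changes of 2.14 for Iigp1, 1.99 for Gbp7, 1.98 for Irgm1, 1.55 for Irgm2, 1.46 for Gbp3 and 1.11 for Gbp2. All 6 had reached the minimum in the mutants alone, and the single one at the minimum in the wild type, Gbp5, was not called (2.49 ± 0.458 CPM and 3.47 ± 0.233 CPM). Iigp1, the highest, went from 1.17 ± 0.417 CPM to 5.48 ± 1.87 CPM. The enzymes that attach ISG15 to proteins were among the most changed too, although Isg15 had no row. Ube2l6, the E2 enzyme, rose from 1.61 ± 0.220 CPM to 7.65 ± 1.25 CPM (2.17) and Uba7, the E1 enzyme, from 1.16 ± 0.177 CPM to 4.86 ± 1.13 CPM (1.96), and both had reached the minimum in the mutants alone. The ligase Herc6 was not called (29.2 ± 2.98 CPM and 30.4 ± 2.54 CPM).

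**Figure D3:**
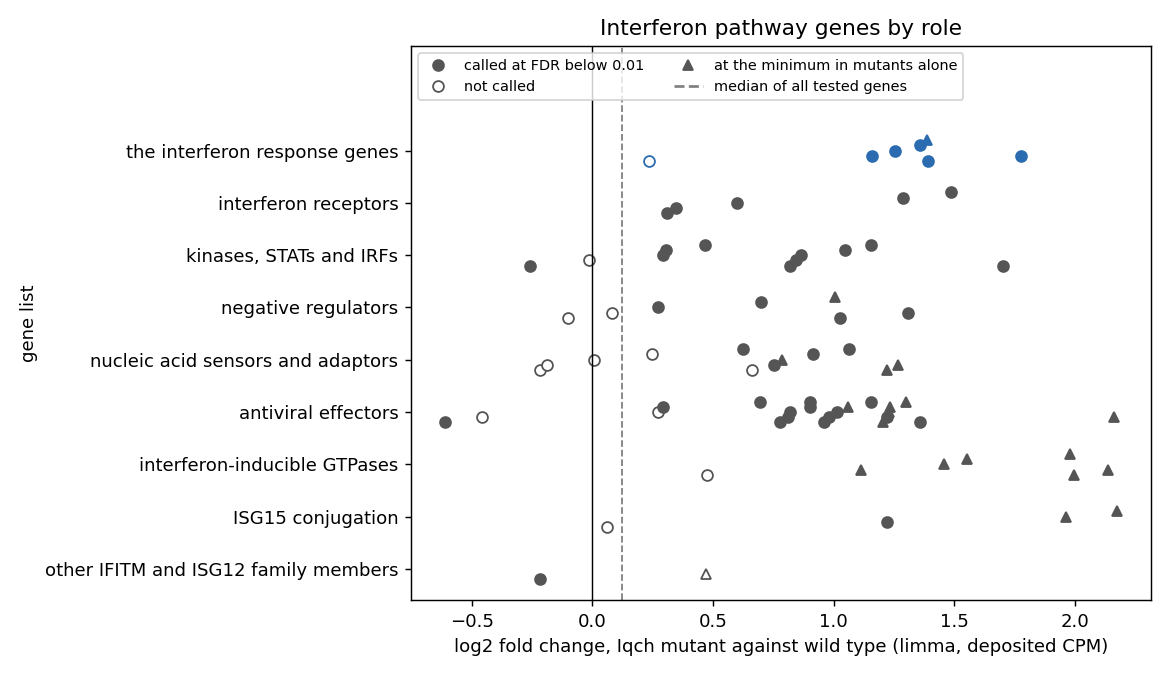
Log2 fold change of each tested gene of the interferon pathway, Iqch mutant against wild type, 1 row per list. Filled symbols passed an FDR of 0.01, open symbols did not, triangles mark genes that reached the minimum in the mutants alone, and the dashed line is the median of all tested genes (0.12). The GTPases and the ISG15 enzymes past 1.9 are triangles, and 3 filled points lie below 0, Isg20 and Ifitm7 among them.

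In the promoter windows of the 69 pathway genes, the ISRE letters were present in 14 (20.3%) and the GAS letters in 16 (23.2%), against 3.27% and 7.81% of all windows. Of the 14 genes with the ISRE letters, Gbp2, Gbp7, Irgm1, Irgm2, Iigp1, Ifih1, Trim21 and Trim30a rose more than 2-fold, and all of these had reached the minimum in the mutants alone, so they had to be higher there to be tested. Those at the minimum in the wild type changed less: the log2 fold changes were 0.91 for Rigi, 0.63 for Tbk1, 0.47 for Irf2 and 0.29 for Eif2ak2, which rose, while Gbp5 and Dhx58 were not called. Among the interferon response genes the letters were present in the not called Stat2 as well as in Bst2 and Ifi27, which rose.

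The summed markers of several cell types moved with the interferon response genes. The counts of markers called are read beside the 36.3% of all tested genes called higher and the 14.2% called lower. The 4 leukocyte markers all rose, 3 of them at the minimum in the mutants alone, and their sum went from 8.32 to 10.1 CPM in the wild type to 21.0 to 31.5 CPM in the mutants. Of the 11 macrophage markers 10 rose, 2 of them at the minimum in the mutants alone, with a mean sum in the mutants 3.11 times that in the wild type. Mutant 4 was the lowest mutant for both sums, as it was for 5 of the 7 interferon response genes, and wild type 4, the highest wild type for 5 of them, was in the middle of the wild types for both. Leydig cell markers rose in 6 of 7. Among the wild types their sum was highest in wild type 4 (1224 CPM) and lowest in wild type 3 (1021 CPM). The median of the interferon response genes had the same highest and lowest wild types. Wild type 3 was also the lowest for the macrophage sum (98.9 CPM). Among the mutants the Leydig sum was lowest in mutant 2 (4296 CPM), where the median of the interferon response genes was highest (1.40). Most of the Leydig sum in the mutants was Insl3, a peptide hormone gene, at 438 ± 15.7 CPM and 2941 ± 37.6 CPM, and the other 6 markers summed to 597 to 799 CPM in the wild type and 1378 to 1534 CPM in the mutants (a ratio of means of 2.18). Sertoli cell markers rose in 7 of 7 tested, from 298 to 323 CPM to 541 to 579 CPM. Endothelial markers rose in 2 of 5 tested, beside 36.3% of all tested genes, and their sum went from 19.1 to 22.3 CPM to 34.9 to 36.9 CPM. Much of that difference was Kdr, at 3.69 ± 0.782 CPM and 13.0 ± 0.633 CPM. The other 4 summed to 16.1 to 19.1 CPM in the wild type and 22.0 to 23.3 CPM in the mutants (a ratio of means of 1.28). Spermatid markers fell in 7 of 7, from 20405 to 21545 CPM to 12950 to 14907 CPM. No lymphocyte list was well covered. Of 8 T and NK cell markers only Cd3d had a row, and it fell from 11.7 ± 0.997 CPM to 4.55 ± 0.474 CPM. Of 4 B cell markers only 1 had a row. No neutrophil marker of 4 had a row, and no marker with a row was at 0 in every library. The part of these cell types in the changes of the interferon response genes was not tested.

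**Figure D4:**
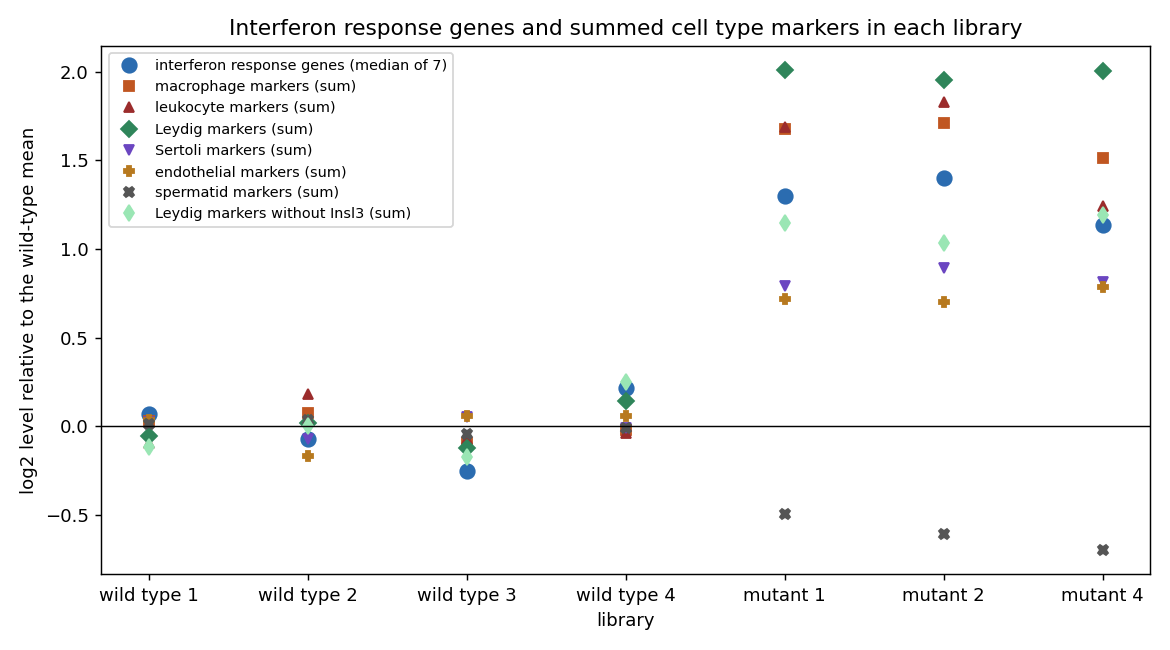
Median of the 7 interferon response genes and summed CPM of 6 marker lists, the Leydig list also without Insl3, in each library, as log2 relative to the wild-type mean. In the mutants the interferon response genes (1.13 to 1.40) lie below the macrophage, leukocyte and Leydig sums and above the Sertoli and endothelial sums, the Leydig sum without Insl3 is at 1.04 to 1.19, below them in mutants 1 and 2 and above them in mutant 4, and the spermatid sum is below 0.

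The genes around the 7 loci were described by position. Within 100 kb there were 53 tested genes that are not on the list, of which 22 were called higher (41.5%), 2 lower (3.77%) and 29 not at all, beside 36.3% and 14.2% of all tested genes. The loci differed. Around Stat2, itself not called, 8 of 9 neighbours were called higher, and around Ifi27 none of 6. Bst2 had 6 of 13, Irf7 5 of 13, Ifitm2 2 of 6, Ifitm3 1 of 5 and Irf1 1 of 2. Of the 47 neighbours at the minimum in the wild type, 18 were called higher, beside 34.4% of all genes at that minimum. Neighbours called with a fold above 2 were Cdhr5, Cnpy2 and Rnh1, and, at the minimum in the mutants alone, Plvap, Ano8 and Pgghg. Of all tested genes 8.79% were called higher with such a fold. Cdhr5, a cadherin-related gene 2598 bp from Irf7, rose from 2.32 ± 0.573 CPM to 21.6 ± 2.83 CPM, a log2 fold change of 3.20 (SE 0.17, limma FDR = 1.7e-08) that is above that of any interferon response gene. Pgghg, 6241 bp from Ifitm2, rose by 1.41. The endothelial gene Plvap, near Bst2, rose by 1.89 and Ano8 by 1.64. Rnh1, near Irf7, rose by 1.22 and Cnpy2, near Stat2, by 1.39.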

How the data were processed

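The 9 genes, the pathway lists and the marker lists were chosen with earlier results of these data known. The deposited CPM were made by the authors from reads trimmed by Trimmomatic, aligned to GRCm39 by Subread and assigned to genes by featureCounts. A gene was kept if 2 samples of any group had 75 reads for it, and the CPM sum to 1000000 over the kept genes. The annotation release and the strand setting are not given in the sources used here.

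Differences were fitted to log2(CPM + 0.1) by limma 3.58.1 under R 4.3.3 (lmFit, then eBayes, trend option on), wild type 1 to 4 against mutants 1, 2 and 4, with no covariates. Genes with at least 2.2 CPM (about 75 reads at these depths) in 2 samples of a group were tested, 17126 in all. P-values were adjusted by Benjamini-Hochberg over all tested genes, and genes were called at an FDR of 0.01. The pseudocount understates changes of low genes. Each library was 1 mouse. Reads carry no molecular identifiers, so read numbers cover counting error only.

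Gene names, coordinates and promoter windows came from GENCODE M39 on GRCm39, where 17045 of the rows (99.5%) were found and 82 were not. Python 3.11.15, pandas 2.3.3, NumPy 2.4.6, pysam 0.24.0 and matplotlib 3.10.9 did the rest. Named pathway genes are every called gene with a fold above 2 and otherwise the most changed called gene in each direction, and a few genes are not reported here. Other genes named from the lists (Ifnar1, Irf9, Socs1, Dhx58, Cgas, Mx1, Herc6, Gbp5, Ifi27l2a, Cd3d, Insl3, Rigi, Tbk1, Irf2, Eif2ak2, Tcf4 and Bcl11a) and Phrf1 were chosen after their values were seen. The alternatives tried are given at the end.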

Additional observations from a re-analysis of the deposited data

Results flagged for a closer look

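Irf7 in wild type 4, at 2.48 CPM, stood apart from the other 3 wild types (1.13 to 1.34 CPM). Its gap to the nearest of them was 0.842 of the range of the 4, above the 95% critical value of Dixon's test for 4 samples, and it was the only one among 8 genes examined (the 7 interferon response genes and Iqch). Chance flags about 1 in 20 such groups. The 93 reads behind it compare with 37 to 46 in the others.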

How the results depend on the processing

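The 7 interferon response genes kept their direction and their side of the FDR threshold under each alternative that tested them (14 for each gene, 12 for Irf7, which a minimum of 5 CPM or of 2.2 CPM in 2 wild-type libraries left out). These were pseudocounts of 1 and 0.01, testing without a minimum or with one of 5 CPM, size factors, the replicate block, each library left out in turn and, added after seeing the data, the minimum set in the wild type. Log2 fold changes ran from 1.61 to 1.87 for Ifitm2, 1.25 to 1.57 for Ifitm3, 1.12 to 1.33 for Bst2, 0.10 to 0.29 for Stat2, 0.95 to 1.25 for Irf1, 1.01 to 1.62 for Irf7 and 1.22 to 1.44 for Ifi27. Of the 69 further pathway genes 53 were called higher in the main setting, and 35 of 50 with the minimum set in the wild type. That minimum left out the 19 genes that had reached it in the mutants alone, which had to be higher there to be tested. The count called lower, 3, was 5 with size factors and ran from 1 to 3 with a library left out (1 without wild type 1, mutant 1 or mutant 4). Replicate numbers did not pair the samples (correlations of deviations 0.026, 0.0094 and -0.098 for numbers 1, 2 and 4). With the replicate block 6 of the 7 genes and 49 of the 69 were called higher, and 7722 genes in all beside 8640 without it. edgeR and DESeq2 on reads recovered from the CPM were planned and not run, because the table's low values were too few to recover reads by the rule used. Mutant 3 entered no comparison.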

Other observations

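Of the 7 spermatogonial markers 4 were called higher, with sums of 112 to 124 CPM in the wild type and 166 to 193 CPM in the mutants, and Kit, the receptor of differentiating spermatogonia that Leydig cells also express, had the largest difference among them (21.7 ± 2.49 CPM and 62.2 ± 11.1 CPM). Of 6 spermatocyte markers none was called higher and 1, Spag6l, was called lower, with sums of 1409 to 1493 CPM and 1285 to 1371 CPM. Of 4 peritubular myoid markers tested, Des was called higher, with sums of 66.2 to 90.1 CPM and 76.5 to 102 CPM. Of all tested genes 36.3% were called higher and 14.2% lower, and the counts of these short lists are read beside those shares.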
